A study of Mus musculus with 2 samples.

Results

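The MiT/TFE family of transcription factors has 4 genes in the mouse, *Mitf*, *Tfeb*, *Tfe3* and *Tfec*. They were chosen by symbol, and all 4 were among the 32524 genes counted in synovial myeloid cells of arthritic mice. Sorted CD45+CD11b+ cells of the hind paws went into droplet-based 3' RNA sequencing of single cells, with 1 library from mice that had received β-glucan and 1 library from mice that had received PBS, 7 days before arthritis was induced in both groups. Cells were sorted at day 17 of arthritis, and the methods name wild-type C57BL/6 mice and a single intraperitoneal dose of β-glucan or PBS. β-glucan is a polysaccharide of fungal cell walls that is used to induce trained innate immunity. The sample labels describe arthritis induced by injected antibodies with lipopolysaccharide, whereas the design text and the methods name transfer of K/BxN serum, and this conflict was not resolved here. With 1 library per group there is no replicate of either treatment, so no test between groups was possible. Every interval below is a 95% interval that covers counting error only.

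MiT/TFE proteins are basic helix-loop-helix leucine zipper factors that bind short E-box and M-box sequences as homodimers or as heterodimers with each other. TFEB, TFE3 and MITF are held in the cytoplasm by phosphorylation when mTORC1 is active at the lysosome, and move to the nucleus when it is not, where they drive genes for lysosomes and autophagy. In the macrophage lineage MITF and TFE3 act with PU.1 downstream of the CSF1 receptor and RANK in osteoclast differentiation, while TFEC is expressed mainly in macrophages. Transcript counts do not show the location or phosphorylation of the proteins.

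On GRCm39, *Mitf* (ENSMUSG00000035158) spans 97783950 to 97998323 of chromosome 6, plus strand, and 4.73% of its 214 kb is exon. *Tfec* (ENSMUSG00000029553) lies on the same chromosome from 16833372 to 16898440 on the minus strand, over 65.1 kb with 8.6% exon. *Tfeb* (ENSMUSG00000023990) lies on chromosome 17 from 48047837 to 48103348, over 55.5 kb with 12.4% exon. *Tfe3* (ENSMUSG00000000134) lies on chromosome X from 7628761 to 7641444, over 12.7 kb with 73.5% exon. The 4 genes therefore differ widely in intron length, and the sources used here do not state whether reads in introns were counted. No other gene of the count tables overlaps any of the 4.

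MiT/TFE factors recognise the E-box CACGTG, which reads the same on both strands, and the M-box core CATGTG, searched on both strands. Of 32851 promoters of RefSeq (300 bases each, build GRCm38.p6), 7.15% held the E-box and 14.2% the M-box core. The 9 promoters of the 4 members held neither. The 120 bases before 3 start sites of *Mitf*, which has several alternative first exons that 3' counts cannot tell apart, are shown because the gene differed most between the libraries. Those of *Lamp1*, *Mcoln1* and *Ctsd*, which encode lysosomal proteins, are shown as promoters that do hold the E-box, given in capitals.

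Mitf start site 1, chr6:97806938-97807057, plus strand: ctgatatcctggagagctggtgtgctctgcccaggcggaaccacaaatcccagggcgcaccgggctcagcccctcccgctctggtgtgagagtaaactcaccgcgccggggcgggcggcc
Mitf start site 2, chr6:97929697-97929816, plus strand: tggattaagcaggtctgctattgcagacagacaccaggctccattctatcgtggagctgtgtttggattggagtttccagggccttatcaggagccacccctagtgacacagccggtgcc
Mitf start site 3, chr6:97991663-97991782, plus strand: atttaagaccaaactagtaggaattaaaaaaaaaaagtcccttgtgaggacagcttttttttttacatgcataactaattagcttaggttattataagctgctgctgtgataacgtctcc
Lamp1, chr8:13159041-13159160, plus strand: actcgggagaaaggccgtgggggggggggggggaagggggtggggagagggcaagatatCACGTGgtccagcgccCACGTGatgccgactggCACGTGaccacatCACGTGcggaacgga
Mcoln1, chr8:3500399-3500518, plus strand: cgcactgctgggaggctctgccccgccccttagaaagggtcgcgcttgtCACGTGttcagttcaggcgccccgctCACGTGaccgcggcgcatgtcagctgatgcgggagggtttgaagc
Ctsd, chr7:142387828-142387947, minus strand: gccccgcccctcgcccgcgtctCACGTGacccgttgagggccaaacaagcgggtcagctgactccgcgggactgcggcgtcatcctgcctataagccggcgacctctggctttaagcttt

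The *Lamp1* window held 4 E-boxes, 61, 45, 28 and 15 bases before the start site, *Mcoln1* held 2, and *Ctsd* held 1. The 3 start sites of *Mitf* hold no capitals. A match describes the letters of a window and does not show that a factor binds there.

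The β-glucan library had 81611849 UMIs in 7196 barcodes and the PBS library 73874602 in 5760. A UMI marks 1 captured transcript. Barcodes counted as cells if they held 500 genes or more and no more than 10% of UMIs from mitochondrial genes, which gave 5696 and 4553 cells, with median depths of 12458 and 14475 UMIs. They fell into 18 clusters, built without the 4 members, of which 9 formed the main myeloid compartment of macrophages and antigen-presenting cells (4616 and 3677 cells). All 10 macrophage markers were detected in the compartment in both libraries, and their summed level differed by 0.09 log2. The sum of 10 antigen-presenting cell markers differed by -0.58, and the cluster led by *Retnla* and *Ccl17* made up 7.30% of compartment cells against 15.3% with PBS. The melanocyte markers, another lineage known for *Mitf*, summed to 2.33 and 3.40 CPM. Levels are given as CPM, the gene's UMIs per 1000000 UMIs of the same cells.

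All 4 members were higher in the β-glucan library over the whole compartment, and *Mitf* by far the most. *Mitf* had 653 CPM (647 to 660, from 42683 UMIs) after β-glucan and 372 CPM (368 to 377, from 22560 UMIs) after PBS, a log2 ratio of 0.81 (0.79 to 0.83). *Tfec* was at 37.7 and 29.96 CPM, a log2 ratio of 0.33 (0.24 to 0.42). *Tfeb* was at 66.2 and 54.3 CPM, a log2 ratio of 0.28 (0.22 to 0.35). *Tfe3* was at 84.4 and 74.0 CPM, a log2 ratio of 0.19 (0.13 to 0.25). For none of the 4 genes did the counting intervals of the libraries' levels overlap. Of 9811 compartment genes averaging 5 CPM or more, 57.5% were higher with β-glucan. The interval of the log2 ratio lay above 0 for 3237 of the 9811 and below 0 for 2137. An interval above 0 is therefore not particular to the family.

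Set against all 9811 genes with at least 5 CPM in the compartment, whose median log2 ratio was 0.03, *Mitf* held rank 11 from the highest. *Fgd4* (0.91) and *Pdgfc* (0.88) were the only genes above it with a mean of 50 CPM or more over the libraries. *Mitf*, at 1.75-fold, and *Tfec*, at 1.26-fold, were the 2 of 4 members with a log2 ratio of at least 0.32, a fold mark that 3.8% of all genes passed. No member was lower by this fold mark, as 3.13% of genes were. *Tfeb* at 1.22-fold and *Tfe3* at 1.14-fold lay below the mark. *Tfec* lay so near the mark that it fell below it with no filter on cells (log2 0.31), with TMM factors (0.31), without the low-depth cluster (0.315), with equal weight per cell (0.26), with the same cluster sizes (0.19) and in cells with the same share of long-gene UMIs (0.06).

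Together the 4 genes gave 842 CPM with β-glucan and 531 CPM with PBS. Without *Mitf* the other 3 gave 188 and 158 CPM. *Mitf* thus provided 77.6% of the family's UMIs in the β-glucan compartment and 70.2% in the PBS compartment, while *Tfe3* provided 10.0% and 13.9%. Such shares compare a library with the other and are not numbers of transcripts per gene, since long introns can add UMIs.

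Over clusters, the members had separate patterns of level. In the compartment and over both libraries together, *Mitf* was highest in the cluster led by *Apoe* and *Gpnmb*, with 922 CPM after β-glucan and 496 after PBS. A low-depth cluster led by *Ldlrad3* and *Gsr* followed (903 and 490 CPM), and then the cluster led by *Spp1* and *Olr1* (830 and 499 CPM). In the PBS library alone these 3 clusters had intervals that overlap, and the *Spp1* cluster was the highest. Over both libraries together the level of the low-depth cluster did not differ beyond the intervals from either of these neighbours. The cluster led by *Ednrb* and *Cd163* had 705 and 398 CPM, that led by *H2-Aa* 649 and 433, that led by *Vsig4* 583 and 396, and that led by *Fxyd2* 531 and 333. The lowest values were 304 and 212 CPM in the *Retnla* *Ccl17* cluster and 92.8 and 57.0 CPM in the small cluster led by *Cadm1* and *Clec9a*, genes of conventional dendritic cells. All of these clusters had a higher value with β-glucan.

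**Figure D1:**
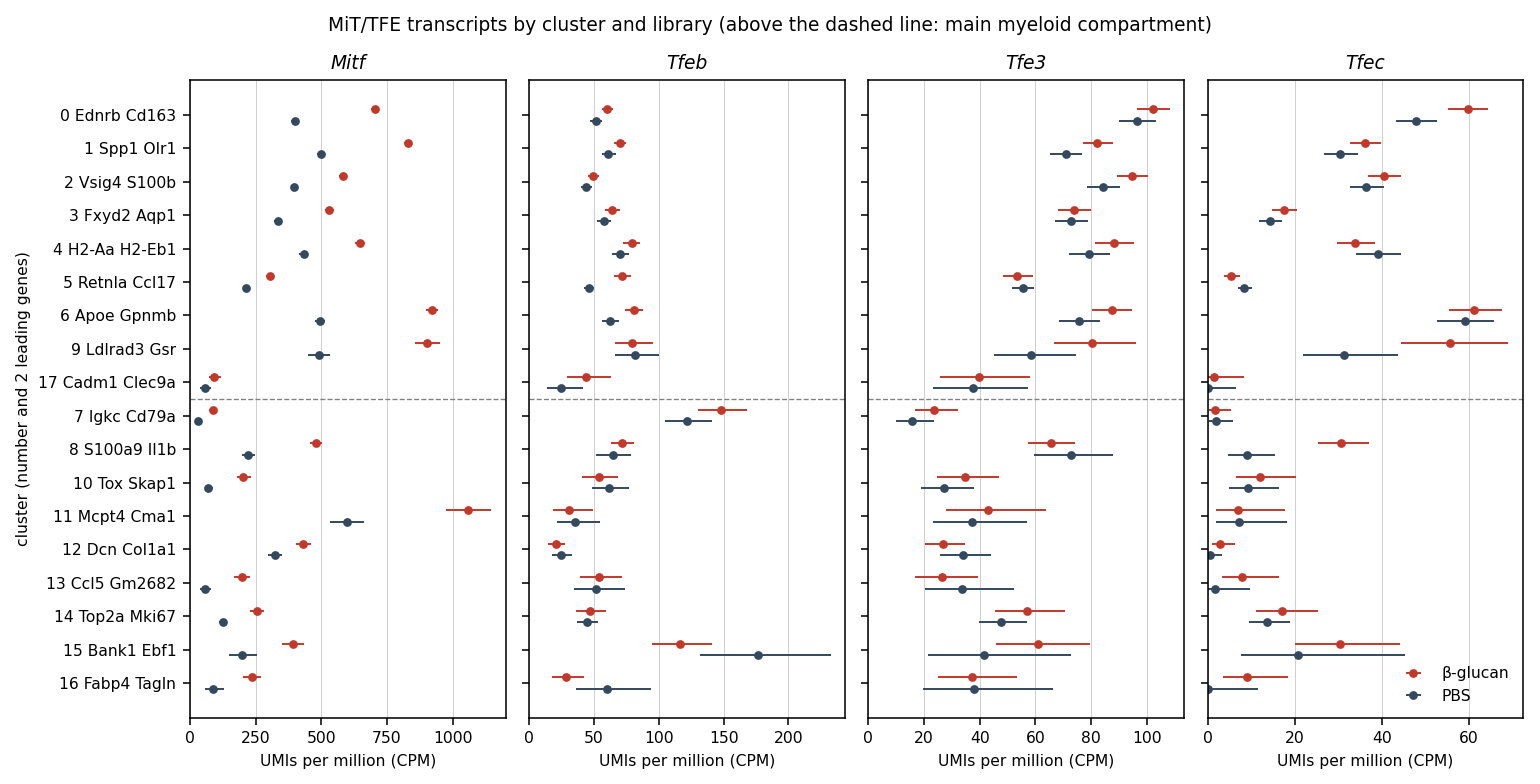
Levels of the 4 members in CPM (linear axes) in each of 18 clusters, β-glucan library in red and PBS library in dark blue, with 95% Poisson intervals. *Mitf* is highest in the cluster of mast cell genes (1058 and 597 CPM), *Tfeb* in the B cell-like clusters, and *Tfec* is near 0 in the B cell-like cluster led by *Igkc*.

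Outside the compartment the cluster led by *Mcpt4* and *Cma1*, proteases of mast cells, had the highest *Mitf* of all clusters, at 1058 CPM (976 to 1145) after β-glucan and 597 CPM (535 to 664) after PBS. MITF is required for mast cell development, and this cluster held 97 and 111 cells. The stromal-like cluster led by *Dcn* and *Col1a1* had 430 and 323 CPM of *Mitf*, and the B cell-like cluster led by *Igkc* 87.3 and 30.2 CPM, the lowest level over both libraries together. *Tfeb* followed another order. Over both libraries together it was highest in the *Igkc* B cell-like cluster, at 148 CPM (130 to 168) and 122 CPM (105 to 141), or 224% and 225% of the compartment's level, and lowest in the stromal-like cluster at 20.4 and 24.3 CPM. The other B cell-like cluster, led by *Bank1* and *Ebf1*, had 116 CPM (94.8 to 141) and 177 CPM (132 to 232) of *Tfeb*, so that in the PBS library it was the higher of the pair, with intervals that overlap. The *Bank1* cluster was mixed, with macrophage markers at 66.8% and 81.3% of their compartment level.

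*Tfeb* and *Tfe3* varied least among the 8 compartment clusters with at least 100 cells per library, by 1.72-fold and 1.83-fold over both libraries together, against 2.99-fold for *Mitf*. *Tfe3* was highest in the *Ednrb* *Cd163* cluster (102 and 96.6 CPM) and lowest in the *Igkc* B cell-like cluster (23.5 and 15.7 CPM). *Tfec* was the most restricted member. It stood at 61.3 and 59.0 CPM in the *Apoe* *Gpnmb* cluster and at 59.7 and 47.8 CPM in the *Ednrb* *Cd163* cluster, values whose intervals over both libraries overlap. In the *Retnla* *Ccl17* cluster *Tfec* was at 5.4 and 8.4 CPM, and the range over the same 8 clusters was 8.17-fold. In the *Igkc* B cell-like cluster *Tfec* had 3 UMIs in each library. In the mixed *Bank1* *Ebf1* cluster it had 27 and 6 UMIs, or 30.4 and 20.8 CPM.

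Within clusters, the difference in *Mitf* was present in every one. It was higher with β-glucan in 8 of 8 compartment clusters, with log2 ratios from 0.52 in the *Retnla* *Ccl17* cluster to 0.89 in the *Apoe* *Gpnmb* cluster, and each interval lay above 0. In the small *Cadm1* *Clec9a* cluster it was 0.70 (0.06 to 1.37). Of all genes measured, 7.06% were higher in each of the 8 clusters and 4.69% were lower in each. *Tfeb* and *Tfe3* were each higher in 7 of 8, with 4 intervals above 0, and *Tfec* in 6 of 8, with 3 intervals above 0 and 1 below. No share over all genes was counted for 6 or 7 of 8 clusters or for intervals within clusters. These counts, and the intervals of *Mitf*, are therefore description and not particular to the members. No member was lower in each cluster, and *Mitf* was the only member higher in each.

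**Figure D2:**
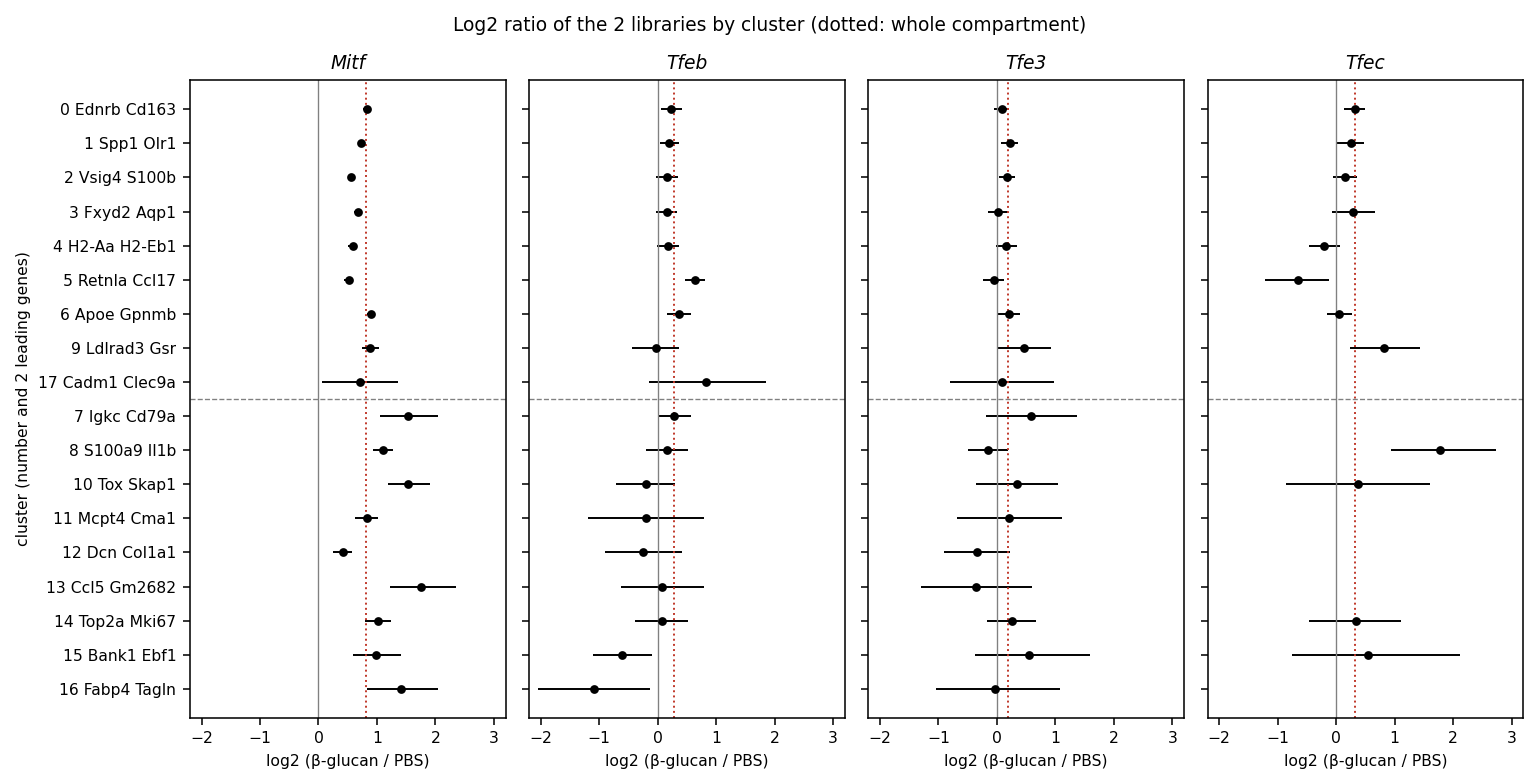
Log2 ratio of β-glucan over PBS of each member in each cluster with 95% counting intervals, with a grey line at 0 and a dotted line at the value of the whole compartment. Points with under 5 UMIs in a library are not drawn. Every *Mitf* point lies right of 0, from 0.41 to 1.76 outside the compartment, while the other members' intervals often cross 0.

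The ratios of *Tfeb* and *Tfec* varied between clusters, which was not tested. Among the 8 clusters *Tfeb* had its largest ratio in the *Retnla* *Ccl17* cluster, at 71.8 CPM (65.7 to 78.2) after β-glucan and 46.0 CPM (42.5 to 49.8) after PBS, log2 0.64 (0.47 to 0.81). In cells of this cluster thinned to 5000 UMIs the libraries were closer, with means of 0.313 and 0.262 *Tfeb* UMIs per cell and a UMI in 24.3% (19.8 to 29.3) and 21.2% (17.8 to 24.8) of cells. In the same cluster *Tfec* had a log2 ratio of -0.65 (-1.21 to -0.11), from 39 and 115 UMIs. After thinning it was found in 2.13% (0.86 to 4.33) and 2.35% (1.26 to 3.99) of cells, from 8 and 16 UMIs, so that a difference was not detectable at that depth. In the other compartment clusters with at least 100 cells per library the log2 ratio of *Tfeb* ran from -0.04 to 0.37.

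No count over all genes was made for the clusters outside the compartment. *Mitf* was also higher with β-glucan there, in 9 of 9 clusters, with every interval above 0. In the mast cell cluster the log2 ratio was 0.83 (0.63 to 1.02), close to that of the compartment, while the summed mast cell and basophil markers of the same cells differed by -0.23. The macrophage markers in this cluster summed to 38.3% and 24.6% of their compartment level, a difference of 0.73, and the neutrophil markers (1206 and 137 CPM, log2 3.14) and antigen-presenting cell markers (2316 and 842 CPM, 1.46) also differed. Their part in the ratio of *Mitf* was not tested. In the *Igkc* B cell-like cluster the log2 ratio of *Mitf* was 1.53 (1.04 to 2.04), where the macrophage markers summed to 9.20% and 9.15% of their compartment level, a difference of 0.10. Markers of other cell types differed more there, the basophil and mast cell markers with 122 and 11.8 CPM (log2 3.36) and the neutrophil markers with 457 and 15.1 CPM (4.92). *Mitf* in these cells stood at 13.4% and 8.10% of its compartment level. In the T cell-like cluster *Mitf* stood at 31.2% and 18.9% of its compartment level and the macrophage markers at 22.8% and 25.5% of theirs, while the neutrophil markers differed by 1.45 and the basophil and mast cell markers by 0.79. The NK cell-like cluster had the largest *Mitf* log2 ratio (1.76), with macrophage markers at 27.4% and 17.2% of their compartment level, a difference of 0.77. The macrophage markers differed by 0.63 in the proliferating-like cluster and 0.47 in the stromal-like cluster. In the endothelial-like cluster they differed by -0.13 and in the *Bank1* cluster by -0.19. RNA released from other cells can give UMIs in lymphocytes, and its part in these values was not tested. In the neutrophil-like cluster *Mitf* was at 479 and 223 CPM, and the macrophage markers at 83.5% and 44.3% of their compartment level, a difference of 1.01. A finer clustering divided the cells of this cluster. In 241 of them, with 3 macrophage markers detected, *Mitf* was at 102 and 122 CPM (57 and 80 UMIs). No interval was computed for this ratio, so a difference in either direction is not shown in these cells. In 179 cells with all 10 macrophage markers *Mitf* was at 549 and 307 CPM. Of those 179, the cells from the β-glucan library were to 20.6%, and those from the PBS library to 74.4%, among the cells of highest doublet score.

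Cell by cell, the higher level of *Mitf* was spread over many cells. After each cell was thinned to 5000 UMIs (leaving 4237 and 3393 compartment cells), 86.0% (84.9 to 87.0) of β-glucan cells and 72.9% (71.4 to 74.4) of PBS cells had at least 1 *Mitf* UMI. Thinning left out 379 and 284 shallower cells, and before it, at median depths of 13029 and 15476 UMIs, the shares were 92.9% and 88.4%. Cells with at least 8 *Mitf* UMIs made up 8.83% and 1.89%. At the same thinned depth 12.3% and 5.92% of cells in the *Igkc* B cell-like cluster had a *Mitf* UMI, and 0.58% and 0% a *Tfec* UMI. How much of these shares is released RNA was not tested. *Tfeb* was found in 27.2% and 23.1% of compartment cells, *Tfe3* in 34.7% and 31.6%, and *Tfec* in 15.9% and 12.6%. Before thinning these shares were 51.5% and 50.5%, 62.9% and 63.0%, and 31.3% and 27.9%, so that for *Tfe3* the order of the libraries turned with the depth. Cells with a UMI of none of the 4 made up 6.87% and 13.8%, and cells with a UMI of each made up 1.46% and 0.74%.

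**Figure D3:**
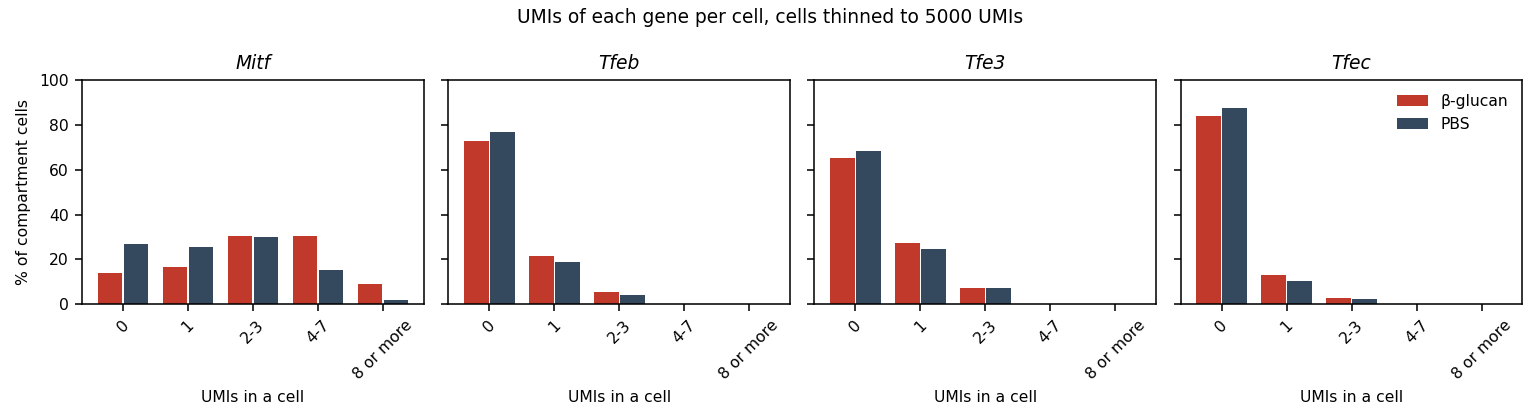
Share of compartment cells (in %, axis from 0) by the number of UMIs of each member after thinning to 5000 UMIs, β-glucan in red and PBS in dark blue. For *Mitf* the classes of 4 to 7 and of 8 or more UMIs are larger with β-glucan (30.3% and 8.83% against 15.4% and 1.89%).

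Of the pairs of members, *Mitf* and *Tfec* had the largest difference between cells with and without the other. Of thinned β-glucan cells with a *Tfec* UMI 92.3% had a *Mitf* UMI, against 84.8% of those without, and of PBS cells 84.0% against 71.3%. For *Tfeb* and *Tfec* the shares were alike, at 26.7% against 27.2% and 21.1% against 23.4%. Within clusters and libraries the mean correlation over cells of *Mitf* with *Tfec* was 0.09 over 16 sets of cells, and with *Tfeb* and *Tfe3* 0.02 and 0.03. These correlations are weak in sparse counts and are given as description.

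Over 15 clusters in each library (30 points that share 2 libraries), the genes most like each member were named by Pearson correlation of log2(CPM + 1) over 6954 genes. For *Mitf* these were *Arhgef10l* (0.93), *Rnf180*, *Fmn1*, *Snx24* and *Scamp1*. For *Tfeb* they were *Irf2* (0.92), *Tmem131l*, *Rubcnl*, *Arhgap17* and *Dgkd*. For *Tfe3* they were *Tmem106a* (0.96), *Slc6a6*, *Cln8*, *Dusp3* and *Rab31*, and for *Tfec* *P2ry12* (0.95), *Adap2*, *Mertk*, *Mfsd1* and *Stard8*. Of the members, *Tfe3* and *Tfec* were most alike (0.85), and *Mitf* and *Tfeb* least (-0.24). Over cells within clusters, *Psd3* (0.26) and *Zeb2* (0.22), followed by *Peak1*, *Myo1e* and *Mtss1*, were most like *Mitf* among 4051 genes. Each of these genes spans over 100 kb. The highest values were 0.083 for *Tfeb* (*Myo1f*) and 0.065 for *Tfe3* (*Lamp1*), and *Hmox1*, with 0.12, was highest for *Tfec*.

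The libraries also differed in the kind of transcript they held. A median of 19.7% of a compartment cell's UMIs came from genes that span at least 100 kb with β-glucan, and 17.8% with PBS. The median log2 ratio of genes ran from -0.06 for those under 10 kb to 0.18 for those of 200 kb or more, whose 95th percentile was 0.48. *Mitf*, at 0.81, lay above that 95th percentile. When the cells of both libraries were divided into 4 bins of equal size by their share of UMIs from long genes, *Mitf* was higher with β-glucan in each bin. From the bin of lowest share to that of highest, its level was 378 and 251, 572 and 365, 710 and 446, and 879 and 576 CPM, with log2 ratios of 0.59, 0.65, 0.67 and 0.61. For *Tfec* the log2 ratios were 0.40 (0.17 to 0.63), 0.11 (-0.07 to 0.29), 0.004 (-0.16 to 0.17) and 0.09 (-0.07 to 0.26). *Tfeb* was at 0.36 (0.22 to 0.49) in the lowest bin and 0.13 (-0.02 to 0.28) in the highest. *Tfe3* was at 0.24 (0.12 to 0.36) and 0.05 (-0.08 to 0.19) in these bins. In both libraries *Mitf* was also higher in cells with a larger share. Over cells within clusters and libraries its mean correlation with the share was 0.29. With 3211 cells per library matched on the share within clusters, the log2 ratio of *Mitf* was 0.57, of *Tfeb* 0.19, of *Tfe3* 0.16 and of *Tfec* 0.06.

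**Figure D4:**
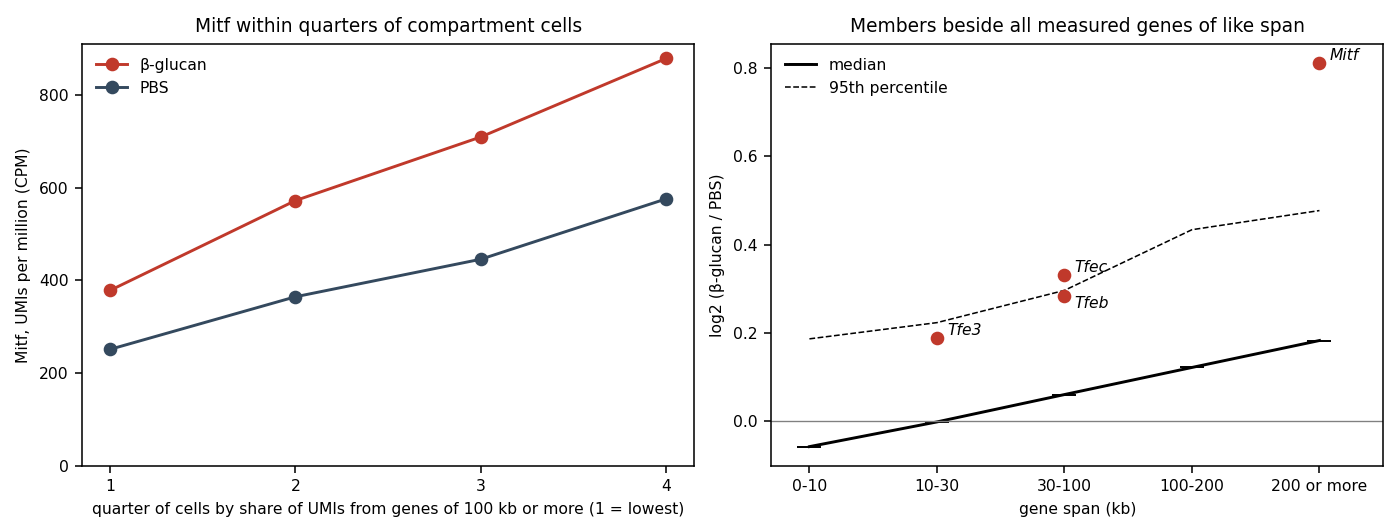
Left, *Mitf* level in CPM (axis from 0) in 4 bins of compartment cells ordered by the percentage of UMIs in genes spanning 100 kb or more, by library. Right, median and 95th percentile of the log2 ratio of all measured genes by gene span, with the members as red points. The libraries stay apart in each bin, and *Mitf* lies at 0.81 above the 95th percentile of 0.48 for the longest genes.

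Lists of genes that act upstream of the family had median log2 ratios from -0.04 to 0.06, against 0.03 for all genes. Of all genes 57.5% were higher with β-glucan. Of 7 measured receptors and ligands 2 were higher (28.6%) and 5 lower, with a median of -0.04. The interval lay below 0 for 5 of the 7, against 2137 of all 9811 genes. *Csf1r*, the receptor of CSF1, was at 996 and 914 CPM (log2 0.12), and *Tnfrsf11a*, which encodes RANK, at 300 and 283 CPM (0.08). *Il1r1*, the IL-1 receptor, was at 8.3 and 10.3 CPM (-0.32) and was the 1 gene of this list past the fold mark. The adaptor genes *Fcer1g* (-0.07) and *Tyrobp* (-0.06) came next from the lowest. With the same cluster sizes in both libraries the direction of 3 of these turned, to -0.01 for *Csf1r*, -0.02 for *Tnfrsf11a* and 0.11 for *Il1r1*. *Tnfsf11*, the ligand of RANK and chosen for mention after its values were seen, had 5 and 2 UMIs. Of 21 genes of the amino acid and mTORC1 control of the proteins' location 14 were higher, with a median of 0.06. The highest were *Fnip2* (0.36), *Depdc5* (0.24) and *Fnip1* (0.21), of which *Fnip1* and *Fnip2* encode partners of folliculin. *Fnip2* passed the fold mark, but not with the same cluster sizes (0.25). The lowest were *Mlst8* (-0.16), *Rheb* (-0.15) and *Rraga* (-0.07). Of 26 kinases, phosphatase subunits and anchors 14 were higher, with a median of 0.01. *Map4k3* (0.45) and *Prkca* (0.34) passed the fold mark, *Prkca* not with the same cluster sizes (0.31), followed by *Rps6ka3* (0.19), and *Cdk4* (-0.22) and *Ywhah* (-0.18) were among the lowest.

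The genes listed here as downstream of the family showed no common shift of the size seen for *Mitf*. The authors report *Myo5a* and *Hpgds*, which they describe as MITF targets, as upregulated in their main myeloid compartment. Neither gene is named here, so the lists do not speak for every target. Of 30 genes listed as lysosomal hydrolases 23 were higher (76.7%) and 7 lower, while 57.5% of all genes were higher. The interval lay above 0 for 17 of the 30, against 3237 of all 9811 genes. The median log2 ratio of the list was 0.05 against 0.03 for all genes. That list also holds *Psap* and *Scarb2*, which do not encode hydrolases. *Galc*, a galactosylceramidase, was highest at 80.9 and 64.1 CPM (0.34), followed by the sulfatases *Arsb* (0.30) and *Galns* (0.24), and *Ctsz*, a cathepsin, was lowest at 402 and 451 CPM (-0.17), before *Arsa* and *Ctsf* (both -0.08). Of 15 lysosomal membrane proteins 12 were higher (80.0%), with a median of 0.06. *Slc38a9* (0.21), an amino acid sensor, *Ctns* (0.14) and *Npc1* (0.14) led, while *Laptm4a* (-0.03) and *Npc2* (-0.03) were among the lowest. Of 18 subunits of the vacuolar ATPase, the lysosome's proton pump, 8 were higher and 10 lower, from *Atp6v0a1* (0.30), *Atp6v1a* (0.16) and *Tcirg1* (0.13) to *Atp6v1g1* (-0.10), *Atp6ap2* (-0.12) and *Atp6v0e* (-0.16). Of 20 autophagy genes 12 were higher, from *Plekhm1* (0.25), *Vps18* (0.24) and *Ulk2* (0.22) to *Gabarap* (-0.06), *Gabarapl2* (-0.07) and *Uvrag* (-0.32). *Galc* was the only gene of these 4 lists past the fold mark, *Uvrag* falling just short of it, and with the same cluster sizes *Galc* was below the mark as well (0.21).

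The E-box was more frequent in promoters of the listed lysosomal genes. The hydrolase and membrane protein lists are those of the CLEAR network, which was defined by E-box-type sites in promoters. A higher frequency in them is thus partly set by the choice of list and is given as description. Of 24 genes of the hydrolase list that RefSeq gives a promoter 10 held it (41.7%), and of 12 membrane protein genes 4 did. The share was 8.09% of all genes with a promoter there and 12.5% of those measured in the compartment. Over the lists of hydrolases, membrane proteins and ATPase subunits together, the median log2 ratio was 0.06 for the 18 genes that held an E-box and 0.05 for the 30 that did not. The lists differed in this, with 0.08 and 0.04 for hydrolases and -0.04 and 0.01 for ATPase subunits. Among all genes measured, 989 with and 6920 without both had a median of 0.03. *Lamp1*, with 4 E-boxes, was at 908 and 855 CPM (0.09), *Mcoln1* at 19.5 and 18.6 CPM (0.07), and *Ctsd* at 952 and 813 CPM (0.23). These 3 genes were chosen after their values were seen.

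**Figure D5:**
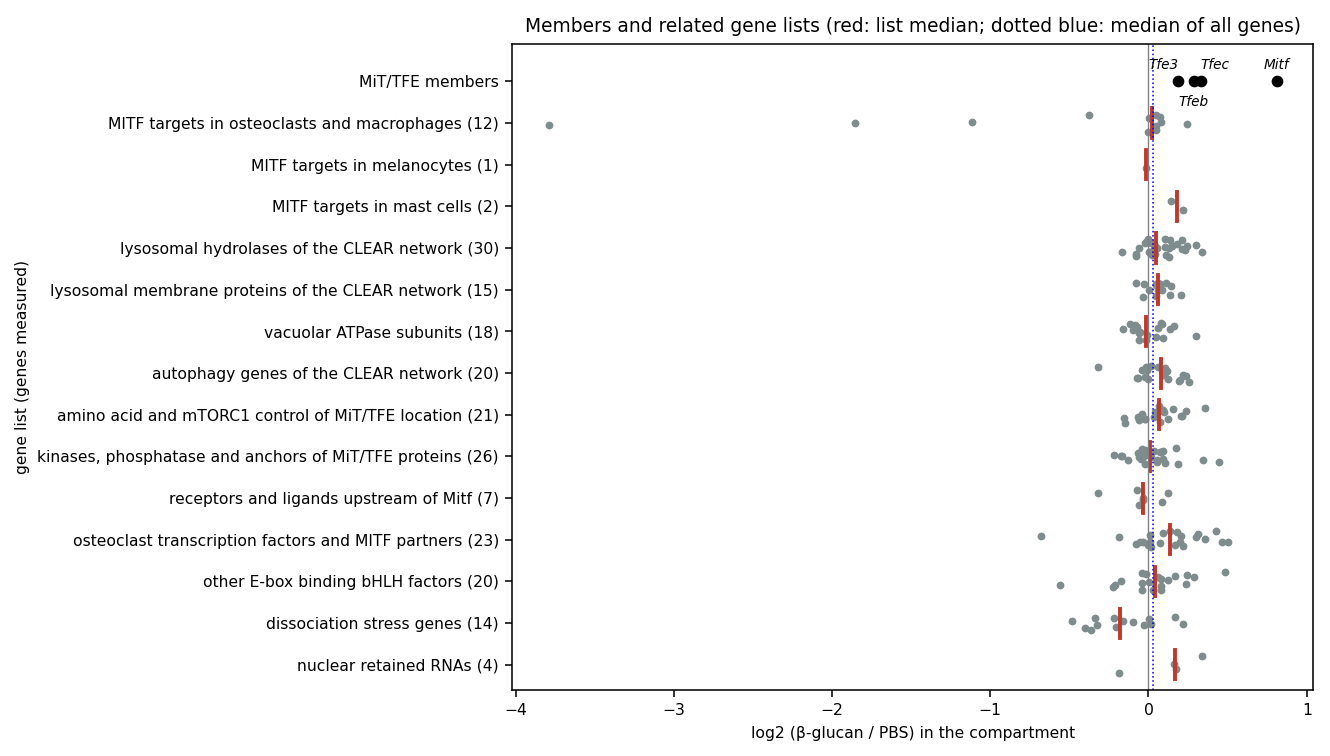
Log2 ratios of β-glucan over PBS in the compartment for the members (black) and for measured genes of 14 lists (grey, 1 point per gene), with each list's median in red and the median of all genes as a dotted line at 0.03. *Mitf* stands at 0.81, while the list medians lie between -0.18 and 0.18, and 3 genes of the osteoclast target list lie below -1.

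Of 18 genes known as MITF targets in osteoclasts and macrophages 12 were measured, 7 of them higher and 5 lower, with a median of 0.03. None was higher by the fold mark, *Gpnmb* (0.24), *Hif1a* (0.08) and *Mcoln1* (0.07) coming nearest. With the same cluster sizes these were at 0.08, 0.03 and -0.004, so that *Mcoln1* turned direction. By the fold mark 4 of the 12 were lower (33.3%), against 3.13% of all genes. These 4 were the osteoclast genes *Mmp9* (-3.79), *Acp5* (-1.86), *Dcstamp* (-1.12) and *Ctsk* (-0.37). *Acp5*, which encodes tartrate-resistant acid phosphatase, was at 10.3 and 37.4 CPM, and *Mmp9*, a matrix metalloprotease, at 0.78 and 10.8 CPM. *Mmp9* reached the minimum of 5 CPM only through the PBS library, where 10 cells held 94.3% of its UMIs, so its place among the measured and lower genes follows from that library. *Ctsk*, the bone-resorbing cathepsin K, was at 121 and 157 CPM.

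For *Acp5*, *Ctsk* and *Mmp9* the difference was smaller once a few cells rich in *Acp5* were left out. These cells were chosen by their *Acp5* UMIs and lay mostly in the PBS library, so a smaller difference in *Acp5* follows from the choice. In 7 cells of the compartment at least 50 *Acp5* UMIs were found, 6 of them in the PBS library and 1 in the β-glucan library, and 1 PBS cell had 573 *Acp5*, 345 *Mmp9* and 781 *Ctsk* UMIs with 9 *Mitf* UMIs (133 CPM). Without the 7 cells the log2 ratio was -0.25 (-0.42 to -0.08) for *Acp5* and -0.00 (-0.05 to 0.04) for *Ctsk*. For *Mmp9* it was -0.83 (-1.38 to -0.28), from 47 and 77 UMIs, or 0.72 and 1.28 CPM, under the minimum. For *Mitf* it was 0.81 as before. With no thinning, at unequal depth, 7.41% (6.67 to 8.20) of β-glucan and 9.90% (8.95 to 10.9) of PBS compartment cells had an *Acp5* UMI. The level of *Mitf* in the 6 PBS cells ran from 0 to 579 CPM, with 2 of them above the level of their compartment, and it was 31.2 CPM in the β-glucan cell.

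*Dcstamp*, needed for the fusion of osteoclast precursors, was at 8.9 and 19.2 CPM, and without the 7 cells its log2 ratio was -1.10. Of its compartment UMIs 90.5% and 95.02% came from the *Retnla* *Ccl17* cluster, where it was at 72.5 and 81.3 CPM (log2 -0.17). With the same cluster sizes in both libraries the log2 ratio of *Dcstamp* was -0.20.

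Of 23 osteoclast transcription factors and partners of MITF 17 were higher (73.9%), against 57.5% of all genes. The median of the 23 was 0.13, and in cells matched on the share of long-gene UMIs 0.03. *Zeb2*, a zinc finger repressor, was at 2914 and 2054 CPM (0.50), *Mef2c* at 509 and 370 CPM (0.46), and *Bcl6*, a repressor of osteoclast genes, at 71.7 and 53.5 CPM (0.42). *Spi1*, which encodes PU.1, was at 384 and 405 CPM (-0.08), *Id2* had a log2 ratio of -0.19, and *Fosl2*, an AP-1 subunit, was at 48.7 and 78.1 CPM (-0.68). Of 20 other bHLH factors that bind E-boxes 12 were higher, from *Bhlhe41* (0.48), *Tcf12* (0.29) and *Arntl* (0.24) to *Mxi1* (-0.21), *Mlxip* (-0.22) and *Bhlhe40* (-0.56). No measured gene of any list had a log2 ratio as high as the 0.81 of *Mitf*, *Zeb2* coming nearest.

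Of the melanocyte targets only *Trpm1* was measured in the compartment (6.0 and 6.0 CPM, -0.01), and of the mast cell targets *Cadm1* (0.22) and *Ndst2* (0.14). Genes that respond to tissue dissociation were lower with β-glucan in 10 of 14 cases, against 4168 of all 9811 genes. By the fold mark 5 of the 14 were lower (35.7%), against 3.13% of all genes. The list had a median of -0.18 and was led by *Dusp1* (-0.48), *Jund* (-0.40) and *Junb* (-0.37), and *Jun* was at 0.22. Of 4 measured RNAs retained in the nucleus 3 were higher, among them *Kcnq1ot1* (0.34) and *Malat1* (0.17), and *Neat1* was at -0.19. Their part in the ratios of the members was not tested.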

How the data were processed

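The authors sorted CD45+CD11b+ synovial cells, made 10x Chromium 3' v3.1 libraries and processed them with Cell Ranger 7.0.0, per the labels. The labels list GRCm39 and mm10, and whether intronic reads were counted is not given in the sources used here. The deposited values are raw UMI counts per gene and barcode. The members and gene lists were chosen with earlier results of these data known.

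Barcodes holding under 500 genes or over 10% mitochondrial UMIs were dropped, which left out 2707 of 12956 barcodes, 2648 of them over the mitochondrial limit. The libraries shared 7 barcodes, 2 of them kept. Cells were normalised with SCTransform (Seurat 5.3.0, sctransform 0.4.2, R 4.3.3) and clustered on 3000 variable genes and 30 principal components at resolution 0.7, with the members and other genes of interest left out of the components. Scrublet (scanpy 1.11.5) called 2 doublets in all, so it did not work as a caller and no cell was removed by it. An alternative leaves out the cells of highest score.

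UMIs were summed per cluster and library and given as CPM with exact Poisson intervals, and ratios with exact conditional intervals (Python 3.11.15, scipy 1.17.1). Shares of cells have exact binomial (Clopper-Pearson) intervals. All cover counting error only. A gene counted as measured if its mean level over the compartment reached 5 CPM. Depth was compared after thinning to 5000 UMIs per cell. TMM factors came from edgeR 4.0.16. The ratios and their intervals were tested on simulated sums with counting error only, and the correlation and the thinning on simulated cells. From each list the 3 genes with the highest and the 3 with the lowest log2 ratios were named, except for some that are not reported here, and for each member the 5 most like it. Gene positions are from GENCODE on GRCm39, in which 31870 of 32524 genes were found, and promoters from RefSeq on GRCm38.p6.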

Additional observations from a re-analysis of the deposited data

Results flagged for a closer look

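*Tfec* had a lower level with β-glucan in the cluster led by *Retnla* and *Ccl17* (log2 ratio -0.65), while its interval lay above 0 in other clusters. After thinning to 5000 UMIs *Tfec* was found there in 2.13% and 2.35% of cells, from 8 and 16 UMIs, a difference within the counting error. *Tfeb* was lower in the B cell-like cluster led by *Bank1* and *Ebf1* (log2 ratio -0.61, 103 and 51 UMIs) and in the endothelial-like cluster led by *Fabp4* and *Tagln* (log2 ratio -1.09, 22 and 19 UMIs), while it was higher in other clusters. The *Bank1* cluster held 76 and 33 cells, with median depths of 6288 and 2870 UMIs. Its macrophage markers stood at 66.8% and 81.3% of their compartment level, and its neutrophil markers at 68.8 and 728 CPM. Their part in the ratio of *Tfeb* was not tested. None of these differences between clusters was tested, since each group is 1 library. In the barcodes that failed the filter on cells *Mitf* was at 774 CPM with β-glucan and 450 CPM with PBS, a log2 ratio of 0.78. Only the alternative with no filter on cells includes these barcodes.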

How the results depend on the processing

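No paired analysis was possible because each group is 1 library, and leaving out a replicate was not possible for the same reason. The log2 ratios of the 4 members over the summed compartment, taken as values without intervals, stayed above 0 under every alternative run on them. Within bins of long-gene share, some intervals of *Tfeb*, *Tfe3* and *Tfec* covered 0. The log2 ratio of *Mitf* was 0.77 with equal weight per cell and 0.72 with the same cluster sizes, those of both libraries pooled. It was 0.57 in cells matched on the share of long-gene UMIs. In matched cells *Tfeb* was at 0.19 and *Tfec* at 0.057, and with the same cluster sizes in both libraries *Tfec* was at 0.19. *Tfe3* was at 0.13 in cells thinned to 5000 UMIs. The cause was not tested. At 2000 UMIs per cell the shares of cells with a UMI differed by 15.2 percentage points for *Mitf*, 1.46 for *Tfeb* and 1.07 for *Tfec*, against 13.1, 4.06 and 3.33 at 5000. The genes higher by the fold mark numbered 373, or 790 with a minimum of 1 CPM and 138 with a minimum of 50 CPM, and those lower 307, or 722 and 92, where fewer or more genes were tested. With TMM factors they were 324 and 353. The median of the autophagy list was -0.015 with a minimum of 50 CPM, and that of the nuclear retained RNAs -0.070 in matched cells, against 0.08 and 0.17. Leaving out the low-depth cluster or the 7 cells rich in *Acp5* was chosen after seeing the data and moved no member beyond its counting interval.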
